A study of Mus musculus with 48 samples.

Results

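The inhibitor of DNA binding genes Id1, Id2, Id3 and Id4 and the LIM-only genes Lmo1, Lmo2, Lmo3 and Lmo4 were followed through 48 RNA-seq libraries of sensory neuron cultures. The cells came from dorsal root ganglia of adult wild-type mice and had been enriched for neurons. These 8 genes were taken by name out of 34183 genes measured. The set was chosen by measured values: Id2 and Lmo3 were higher where Cebpg mRNA had been added to Atf4 mRNA, so their values in that comparison are given as a description, without a test. The 12 groups held 4 libraries each. All groups were wild type, and the age of the animals beyond adult is not given in the labels. Cells of 11 groups were transfected with Dharmafect 2 directly after isolation, kept in Neurobasal-A medium with B27, and harvested after 42 h. Of these, 8 groups received ON-TARGETplus siRNA pools: siCONTROL, siAtf3, siAtf4, siJun, siStat3, siKlf6, siRest and siAlyref. A further 3 received synthetic mRNA made by GenScript: GFP, Atf4, or Atf4 together with Cebpg. The twelfth group was untransfected and taken at time 0. None of the 12 groups was given Cebpg mRNA without Atf4 mRNA, so Cebpg alone cannot be told apart from Cebpg with Atf4. Whether the 4 replicates of a group came from different animals or cultures is not stated in the labels, and the spread that the p-values rest on may therefore be technical. The libraries are bulk RNA from mixed cells, in which fewer cells of a type and less RNA per cell cannot be told apart.

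Id proteins carry a helix-loop-helix domain but lack the basic region that contacts DNA. They pair with E proteins such as Tcf3, Tcf4 and Tcf12 and keep them, and the tissue-specific basic helix-loop-helix (bHLH) factors that need E proteins as partners, off their E-box sites. Id genes are classical targets of bone morphogenetic protein (BMP) signalling through Smad1, Smad5 and Smad9, and are known for holding progenitor and glial cells in an immature or dividing state. Lmo proteins consist of LIM zinc-finger domains and bind no DNA themselves. They bridge transcription factors through the cofactor Ldb1 and compete for it with LIM-homeodomain factors such as Isl1, which specify sensory neurons. Atf4 is a bZIP factor that switches on amino acid supply and stress genes, and Cebpg is a bZIP partner with which it forms dimers on composite C/EBP-ATF sites.

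The 250 bases upstream of the annotated starts are shown for Id2, Lmo3 and Lmo4, which differed between the Atf4 or Cebpg groups and their controls, and for Id4, which had the largest fold change of the 8 in culture. The sequences are from RefSeq on GRCm38.p6, whose promoter table held 6 of the 8 members with 9 starts in all. They are written 5' to 3' on the strand of the gene, and capitals mark CCAAT boxes, read on either strand. The windows are chr12:25096093-25096342 on the minus strand for Id2, chr6:138581969-138582218 on the minus strand for Lmo3, chr3:144205256-144205505 on the minus strand for the most upstream of 3 starts of Lmo4, and chr13:48260866-48261115 on the plus strand for Id4.
Id2: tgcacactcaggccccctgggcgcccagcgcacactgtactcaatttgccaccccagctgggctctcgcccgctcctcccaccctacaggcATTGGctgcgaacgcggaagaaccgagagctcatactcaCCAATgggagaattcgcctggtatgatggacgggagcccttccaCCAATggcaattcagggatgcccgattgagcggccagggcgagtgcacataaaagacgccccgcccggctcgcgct
Lmo3: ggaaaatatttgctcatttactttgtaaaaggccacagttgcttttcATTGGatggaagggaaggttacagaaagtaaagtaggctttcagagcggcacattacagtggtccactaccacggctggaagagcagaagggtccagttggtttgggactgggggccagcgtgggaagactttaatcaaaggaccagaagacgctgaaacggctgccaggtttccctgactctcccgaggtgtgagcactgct
Lmo4: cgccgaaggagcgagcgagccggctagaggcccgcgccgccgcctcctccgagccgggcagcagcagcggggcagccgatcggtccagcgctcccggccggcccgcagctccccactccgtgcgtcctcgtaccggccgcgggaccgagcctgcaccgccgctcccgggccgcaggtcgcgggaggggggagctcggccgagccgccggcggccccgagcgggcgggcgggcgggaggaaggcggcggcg
Id4: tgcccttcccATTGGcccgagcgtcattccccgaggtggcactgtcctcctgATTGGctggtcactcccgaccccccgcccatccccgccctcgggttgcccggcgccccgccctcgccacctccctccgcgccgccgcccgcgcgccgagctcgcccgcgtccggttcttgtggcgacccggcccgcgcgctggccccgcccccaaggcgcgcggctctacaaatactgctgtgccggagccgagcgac

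The Id2 window held 3 CCAAT boxes, the site of the factor NF-Y, beginning 159, 120 and 76 bases before the start. At least 1 CCAAT box was present in 33.9% of the 32841 windows of this length in the table, and 3 or more in 2.79%. The Id4 window held 2 such boxes, the Lmo3 window 1, and the windows of Id3, Lmo1 and Lmo4 none. The E-box CANNTG, the site of bHLH dimers, occurred once in the Id2 window, 2 times in that of Lmo3, in both windows of Lmo1 and in 2 of 3 of Lmo4, against 66.2% of all windows. The windows of Id3 and Id4 held none. The GC-rich Smad element GGCGCC was present in the Id2 and Id4 windows and in 1 window each of Lmo1 and Lmo4, against 9.59% of all windows. The composite C/EBP-ATF element TGATGNAA (3.45% of all windows), the cyclic AMP response element TGACGTCA (1.55%) and the C/EBP palindrome TTGCGCAA (0.164%) were searched on both strands and their letters were not in any of the 9 windows. Motifs that match both strands at the same place were counted once, and matches of different motifs in the members did not overlap. Id1 and Lmo2 are not in the table. These matches describe the sequence and do not show binding.

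Library totals ranged from 1539198 to 6621566 expected counts, and the shallowest were siKlf6 replicate 1, siRest replicate 1 (1937372) and Atf4 plus Cebpg replicate 1 (2097054). Levels are given as CPM, the share of a library's counts after TMM scaling, a correction for composition. The deposited values behave as counts weighted by transcript length, so CPM can be compared between genes per length, but the siRNA and mRNA tables were scaled separately and no test was run across them. In each knockdown group the targeted transcript was at 16.8% to 36.3% of its siCONTROL level, without overlap of libraries. Atf4 was at 14100 ± 3900 CPM (SD, n = 4) after Atf4 mRNA against 642 ± 53.6 with GFP mRNA. In the group given both mRNAs, Atf4 was at 20900 ± 9610 CPM. Cebpg was at 61200 ± 23100 CPM in that group against 52.4 ± 5.85 with Atf4 mRNA alone. These counts include the transfected molecules. The 15 pan-neuronal markers were all detected in every group and summed to 12400 to 24700 CPM over all libraries. Satellite glia markers summed to 600 to 5840 CPM and Schwann cell markers to 1610 to 6220 CPM, so transcripts of support cells were present in every group.

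The first comparison asked how the genes changed between isolation and 42 h of culture with control siRNA, a contrast in which time and transfection cannot be told apart. All 4 Id genes fell, Lmo1 and Lmo4 rose, Lmo2 did not pass the test and Lmo3 was too low to be tested. A gene is said to have risen or fallen where its adjusted p in the edgeR quasi-likelihood test, over all genes tested, was below 0.05. The 7 members tested had a median log2 change of -0.81, and all genes tested one of 0.01. Over all 13448 genes tested 29.2% fell and 28.7% rose, 57.9% in all, so calls as such were the usual outcome in this comparison.

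Id2, the Id family member best known from neural and lymphoid lineages, stood at 82.6, 68.2, 92.9 and 65.5 CPM in the time 0 libraries and at 13.6, 17.8, 18.9 and 21.4 CPM in siCONTROL at 42 h, in order of replicate number. Every time 0 library was above every siCONTROL library. Id2 fell 4.28-fold (log2 fold change -2.10, SE 0.152, edgeR adjusted p = 6.18e-07). Id3, which acts with Id1 downstream of BMP signals in many tissues, was at 63.1, 71.4, 75.1 and 74.2 CPM at time 0 and at 20.7, 21.8, 18.1 and 16.3 CPM at 42 h. The Id3 groups were likewise separate. Id3 fell 3.69-fold (log2 -1.88, SE 0.115, edgeR adjusted p = 1.67e-07).

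Id4, an Id protein linked to glial and neural precursor differentiation, had the largest fold change of the family. It was at 26.7, 27.6, 28.6 and 26.5 CPM at time 0 and at 3.50, 4.65, 5.24 and 4.65 CPM at 42 h. The 4 time 0 libraries lay close together and far above the 4 others. Id4 fell 5.96-fold (log2 -2.58, SE 0.149, edgeR adjusted p = 1.12e-07). Id1, the prototype of the family, was at 25.8, 26, 14.7 and 19.3 CPM at time 0 and at 15.6, 12.8, 9.19 and 12.3 CPM at 42 h. Time 0 replicate 3 lay below siCONTROL replicate 1, so the groups overlapped. Id1 fell 1.75-fold (log2 -0.81, SE 0.217, edgeR adjusted p = 0.00772). Summed over the 4 genes, Id transcripts were at 197 ± 10.8 CPM (SD, n = 4) at time 0 and at 54.1 ± 2.38 CPM at 42 h. Id2 and Id3 together made up most of that sum at both times. At 42 h Id3 (19.3 ± 2.48 CPM) and Id2 (17.9 ± 3.26 CPM) differed by less than either SD. Id4 had been above Id1 at time 0, at 27.4 ± 0.948 against 21.4 ± 5.46 CPM, and was below it at 42 h, at 4.51 ± 0.73 against 12.5 ± 2.62 CPM.

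**Figure D1:**
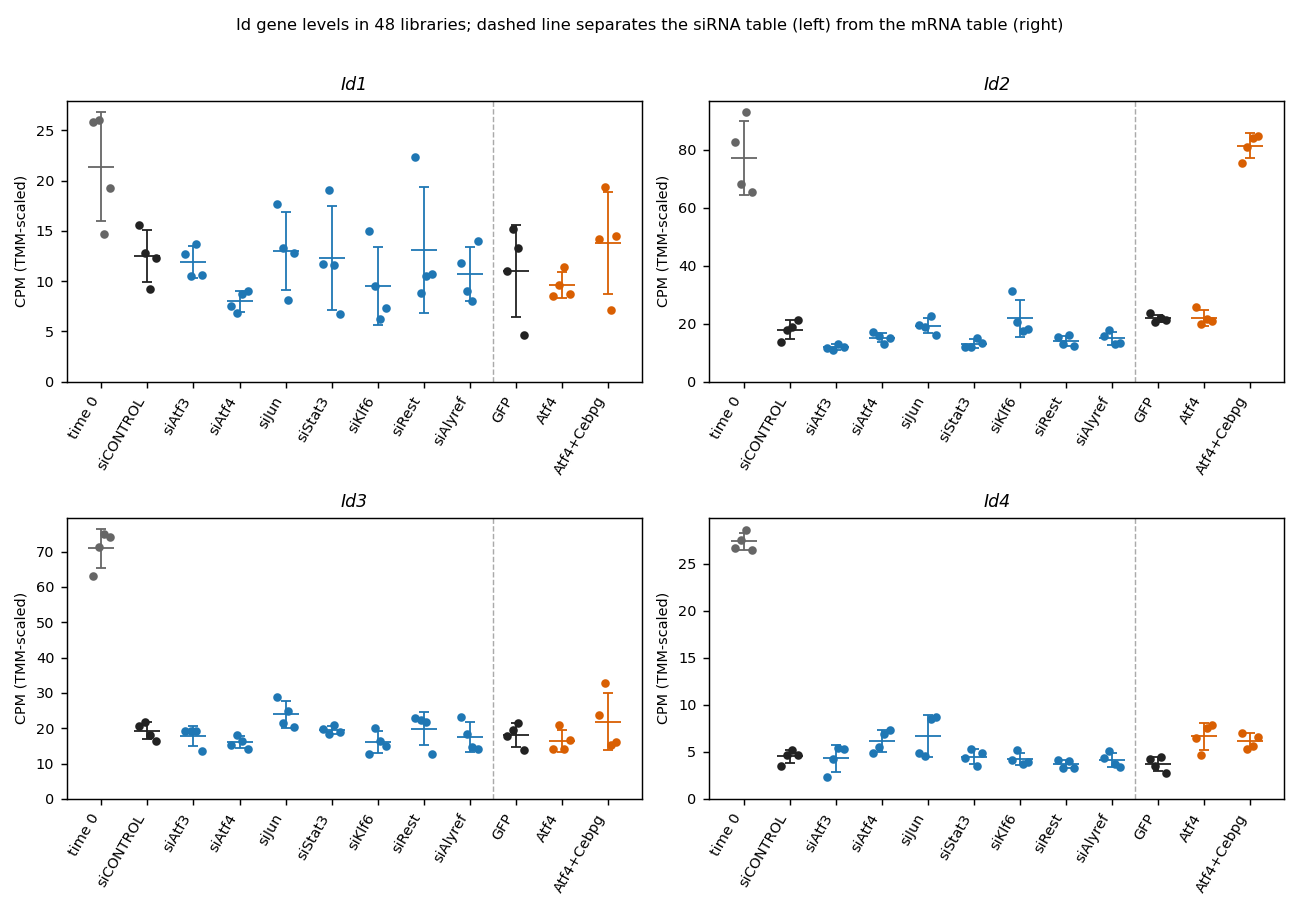
Levels of Id1, Id2, Id3 and Id4 in TMM-scaled CPM (vertical axis) in the 12 groups (horizontal axis); points are libraries, ordered by replicate number, and bars are the mean ± SD of 4. All 4 genes stand highest among siRNA-table groups at time 0, and Id2 in the Atf4 plus Cebpg group (75.5 to 84.9 CPM) stands far above the other 2 mRNA groups.

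Lmo4, the most abundant Lmo transcript in siCONTROL and a cofactor known from neurons and epithelia, moved the other way. It was at 27.7, 27.5, 29.7 and 30.1 CPM at time 0 and at 68.4, 48, 55.4 and 57.1 CPM in siCONTROL at 42 h. All siCONTROL libraries were above all time 0 libraries. Lmo4 rose 1.97-fold (log2 0.98, SE 0.118, edgeR adjusted p = 3.11e-05). Lmo1, a LIM-only gene of the nervous system and a T cell oncogene, was at 26.2, 29.4, 34.2 and 32.1 CPM at time 0 and at 45.0, 43.2, 41.2 and 31.6 CPM at 42 h, with siCONTROL replicate 4 inside the time 0 range. Lmo1 rose 1.32-fold (log2 0.40, SE 0.135, edgeR adjusted p = 0.0262). That call was lost without time 0 replicate 1 (adjusted p = 0.0808) or 2 (0.0646), and without siCONTROL replicate 1 (0.0628), 2 (0.0669) or 3 (0.057). Lmo2, a bridge of blood and endothelial transcription complexes, was at 14.5 ± 1.64 CPM at time 0 and 11.9 ± 4.32 CPM at 42 h and did not pass (log2 -0.28, edgeR adjusted p = 0.366). Lmo3, a neuronal LIM-only gene, was at 3.13, 0, 0.478 and 1.16 CPM at time 0 and between 0 and 0.448 CPM in siCONTROL.

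Genes around the Id and Lmo proteins were read from lists of their partners and regulators. Of 6 E proteins and other partners that Id proteins sequester, 3 were tested and all 3 rose: Tcf12 from 16.3 to 44.6 CPM (log2 1.44, edgeR adjusted p = 6.36e-05), Tcf4 from 16.0 to 27.8 CPM (log2 0.79, edgeR adjusted p = 0.00237) and, outside the naming rule and given here because the list has only 3 tested members, Tcf3 from 15.4 to 21.1 CPM (log2 0.45, edgeR adjusted p = 0.0168). The summed E protein level was 47.7 ± 4.22 CPM at time 0 and 93.5 ± 8.95 CPM at 42 h, while the Id sum went the opposite way. Of 10 neural and repressor bHLH genes tested, 7 fell and 0 rose, with a median log2 change of -1.06 over the list against 0.01 over all genes tested. Among them Bhlhe40, a clock- and stress-linked repressor, went from 70.9 to 26.7 CPM (log2 -1.43, edgeR adjusted p = 1.2e-05) and Mxi1, an antagonist of Myc, from 34.3 to 14.2 CPM (log2 -1.27, edgeR adjusted p = 1.2e-05).

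Of 13 genes tested on the list of Lmo protein partners, called LIM partners here, 6 fell and 3 rose (median log2 -0.41). The list also holds proteins without a LIM domain, such as Ldb2, Rlim, Gata2 and Gata3. Gata2 rose (log2 1.74, edgeR adjusted p = 0.00199). The LIM-homeodomain gene Isl2 went from 379 to 40.5 CPM (log2 -3.22, edgeR adjusted p = 6.56e-09) and Ldb2, a cofactor of LIM factors, from 180 to 35.8 CPM (log2 -2.33, edgeR adjusted p = 3.44e-07). Rlim, a ubiquitin ligase for LIM cofactors, went from 20 to 28.7 CPM (log2 0.52, edgeR adjusted p = 0.0031). The BMP and Smad list, which lies upstream of Id genes, had 11 of 23 tested genes higher and 5 lower (median log2 0.48). Smad1, a BMP-activated Smad, rose from 33.8 to 68.0 CPM (log2 1.0, edgeR adjusted p = 1.79e-06), while Smad9, of the same class, fell from 25.0 to 6.4 CPM (log2 -1.94, edgeR adjusted p = 5.17e-05). Smurf1, a ubiquitin ligase that removes BMP Smads, rose from 20.1 to 43.0 CPM (log2 1.10, edgeR adjusted p = 1.06e-05), and Nog, a secreted BMP antagonist, fell from 5.48 to 0.306 CPM (log2 -3.74, edgeR adjusted p = 0.000183). Higher and lower calls fell on both activators and inhibitors of the pathway. Of 6 cell cycle brakes tested, 3 rose and 1 fell, with Cdkn1a, the p21 inhibitor, going from 61.6 to 823 CPM (log2 3.73, edgeR adjusted p = 3.18e-10).

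Markers of non-neuronal cells moved in the same comparison. Of 10 satellite glia markers, 7 fell and 2 rose, and the list's sum went from 4880 to 5840 CPM at time 0 to 883 to 1030 CPM in siCONTROL, with none of the 10 at 0. Of 12 Schwann cell markers, 9 fell and 2 rose (sums 2590 to 2990 and 2190 to 2490 CPM). The pan-neuronal list also had 9 of 15 markers lower and 1 higher, with sums of 21900 to 24700 CPM at time 0 and 15500 to 19600 CPM at 42 h. Endothelial and mural markers had 5 of 9 higher and 2 lower (169 to 222 against 244 to 318 CPM), fibroblast markers 3 of 7 higher and 2 lower (269 to 489 against 136 to 283 CPM), and macrophage markers 2 of 4 higher and 2 lower (10.6 to 16.3 against 27.3 to 46.6 CPM), with C1qa at 0 in all siCONTROL libraries. All 5 dividing-cell markers tested rose, with a median log2 change of 3.63 (sums over the list 66.7 to 75.2 against 141 to 174 CPM). The part of these shifts in the Id and Lmo changes was not tested.

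**Figure D2:**
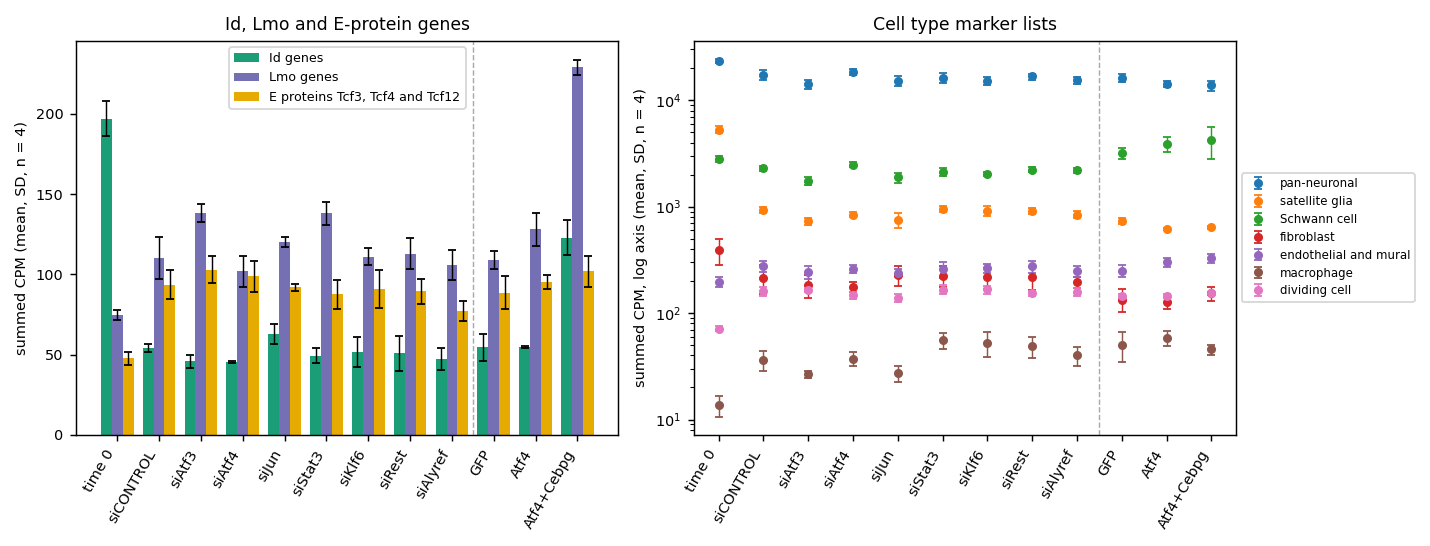
Left, summed CPM of the 4 Id genes, the 4 Lmo genes and 3 E proteins in each group (bars, mean ± SD of 4 libraries); right, summed CPM of the 7 cell type marker lists on a log axis (points, mean ± SD of 4). From time 0 to siCONTROL the Id bar drops from 197 to 54.1 CPM and the E protein bar goes from 47.7 to 93.5 CPM, and the satellite glia points drop in the same step.

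The 7 knockdowns were compared with siCONTROL at 42 h to ask whether loss of these factors moves the members. Lmo3 did not pass the filter on low counts in this fit: it lay between 0 and 1.15 CPM in all 32 libraries. A fall from that level was not detectable at this depth. No knockdown library exceeded 1.15 CPM, so a rise beyond that level was not seen, and smaller changes could not be resolved. For the other 7 members, calls were few. After siAtf3, 2 of 7 members were called against 11.5% of all 14876 genes tested. After siAtf4 it was 1 of 7 (6.91% of all genes), after siJun 1 of 7 (7.78%) and after siStat3 1 of 7 (3.03%). With siKlf6 (1.85% of all genes called), siRest (0.202%) and siAlyref (4.26%), 0 of 7 members were called by edgeR and 0 by DESeq2. At an unadjusted p below 0.05 edgeR gave 0 members after siKlf6, 1 after siRest (Id2) and 0 after siAlyref. All 7 comparisons share the 4 siCONTROL libraries. The median log2 change of the 7 members was -0.05 after siAtf3, -0.25 after siAtf4, 0.27 after siJun and 0.02 after siStat3, and over all genes tested it was at most 0.01 in size in each knockdown.

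Lmo4 was called in 2 knockdowns, in opposite directions. It was at 34.8, 30.7, 32.6 and 38.0 CPM after siAtf4 against 68.4, 48, 55.4 and 57.1 CPM in siCONTROL. The highest siAtf4 library was below the lowest of the 28 other siRNA libraries at 42 h, which stood at 42.7 CPM. Lmo4 fell 1.67-fold (log2 -0.74, SE 0.0969, edgeR adjusted p = 4.09e-06). After siJun it was at 72.4, 77.9, 71.0 and 75.2 CPM, and these 4 libraries were above the highest of the 28 others, at 68.4 CPM. Lmo4 rose 1.30-fold with siJun (log2 0.38, SE 0.0931, edgeR adjusted p = 0.00736). That call was lost when only the 2 groups were fitted (adjusted p = 0.0617) and without siCONTROL replicate 2 (0.0572). In the other 5 knockdowns Lmo4 had group means of 51.0 to 64.1 CPM and none passed the test, siAtf3 having the smallest adjusted p among them (0.272).

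Lmo1 was higher in 2 knockdowns. After siStat3 it was at 66.9, 60.2, 66.3 and 66.9 CPM against 45.0, 43.2, 41.2 and 31.6 CPM in siCONTROL, without overlap. Lmo1 rose 1.62-fold (log2 0.70, SE 0.147, edgeR adjusted p = 0.00418). After siAtf3 it was at 61.1, 58.1, 61.1 and 48.8 CPM, again above all siCONTROL libraries. Lmo1 rose 1.42-fold with siAtf3 (log2 0.51, SE 0.146, edgeR adjusted p = 0.0198), a call lost without siCONTROL replicate 4 (0.0892), siAtf3 replicate 1 (0.0526) or siAtf3 replicate 3 (0.0604). With siAtf4 it was at 59.1, 42.4, 66.9 and 50.8 CPM, of which replicate 2 lay within the siCONTROL range. That difference did not pass (log2 0.44, SE 0.146, edgeR adjusted p = 0.0693), but it passed with DESeq2 (adjusted p = 0.0498), with the replicate number as a block (0.046) and without siAtf4 replicate 2 (0.0271). After siJun the mean was below siCONTROL, at 31.4 ± 4.57 against 40.2 ± 5.97 CPM (log2 -0.35, edgeR adjusted p = 0.186).

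Id2 was the Id gene with a knockdown call. After siAtf3 it was at 11.7, 10.9, 13.1 and 11.9 CPM against 13.6, 17.8, 18.9 and 21.4 CPM in siCONTROL. All 4 siAtf3 libraries were below all siCONTROL libraries, the closest being replicate 3 at 13.1 against siCONTROL replicate 1 at 13.6 CPM. Id2 fell 1.52-fold (log2 -0.60, SE 0.155, edgeR adjusted p = 0.00903). With siStat3 it was at 12, 11.9, 15.1 and 13.4 CPM (log2 -0.46, SE 0.157, edgeR adjusted p = 0.125), which did not pass. Pan-neuronal markers were lower in 8 of 15 cases after siAtf3 (sums 12400 to 15700 against 15500 to 19600 CPM), satellite glia markers in 1 of 10 (662 to 783 against 883 to 1030 CPM), and Schwann cell markers in 2 of 11, with 1 higher (1610 to 1890 against 2190 to 2490 CPM). The 1 satellite glia marker was Glul, at 173 ± 21.8 CPM after siAtf3 against 376 ± 57.7 CPM in siCONTROL. Median log2 changes after siAtf3 were -0.04 over the satellite glia list and 0.03 over the Schwann cell list, so the sums did not show the lists as a whole. After siAtf4, 4 of 15 pan-neuronal markers were higher and none lower (16700 to 19200 CPM). After siJun the sums of satellite glia markers (648 to 869 CPM) and of Schwann cell markers (1680 to 2060 CPM) were below all siCONTROL libraries, with 1 of 10 and 2 of 11 markers lower and none higher. Glul was again the satellite glia marker called, at 165 ± 13.9 CPM, and the median log2 changes of the 2 lists were 0.16 and 0.13. Of the pan-neuronal markers, 2 were lower and 2 higher after siJun (13300 to 16800 CPM). After siStat3, 2 of 15 pan-neuronal markers were lower and none higher (14000 to 17900 CPM), and the sum of macrophage markers was above all siCONTROL libraries (47.7 to 69.4 against 27.3 to 46.6 CPM). The macrophage markers tested after siStat3, 3 of 7, did not follow that sum: 0 were called, and their median log2 change was -0.17. The part of these marker shifts in the Id2, Lmo1 and Lmo4 changes was not tested.

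Id1, Id3, Id4 and Lmo2 passed in none of the 7 knockdowns. Id1 was lowest after siAtf4, at 7.49, 6.80, 8.70 and 9 CPM, all below the lowest siCONTROL library (9.19 CPM), with log2 -0.62 and an edgeR adjusted p of 0.248. Id3 had group means from 16.0 CPM (siAtf4 and siKlf6) to 23.9 CPM (siJun). Id4 ranged from 3.69 ± 0.457 CPM (siRest) to 6.67 ± 2.23 CPM (siJun, log2 0.56, edgeR adjusted p = 0.168). Lmo2 ranged from 9.46 ± 2.17 CPM (siAlyref) to 16.6 ± 1.22 CPM (siAtf3, log2 0.47, edgeR adjusted p = 0.232). At counts this low the standard errors were 0.168 to 0.301 on the log2 scale for these 4 genes. Changes larger than their SE also did not pass, such as log2 -0.62 for Id1 after siAtf4 (SE 0.291). Changes of that size could therefore be missed.

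**Figure D3:**
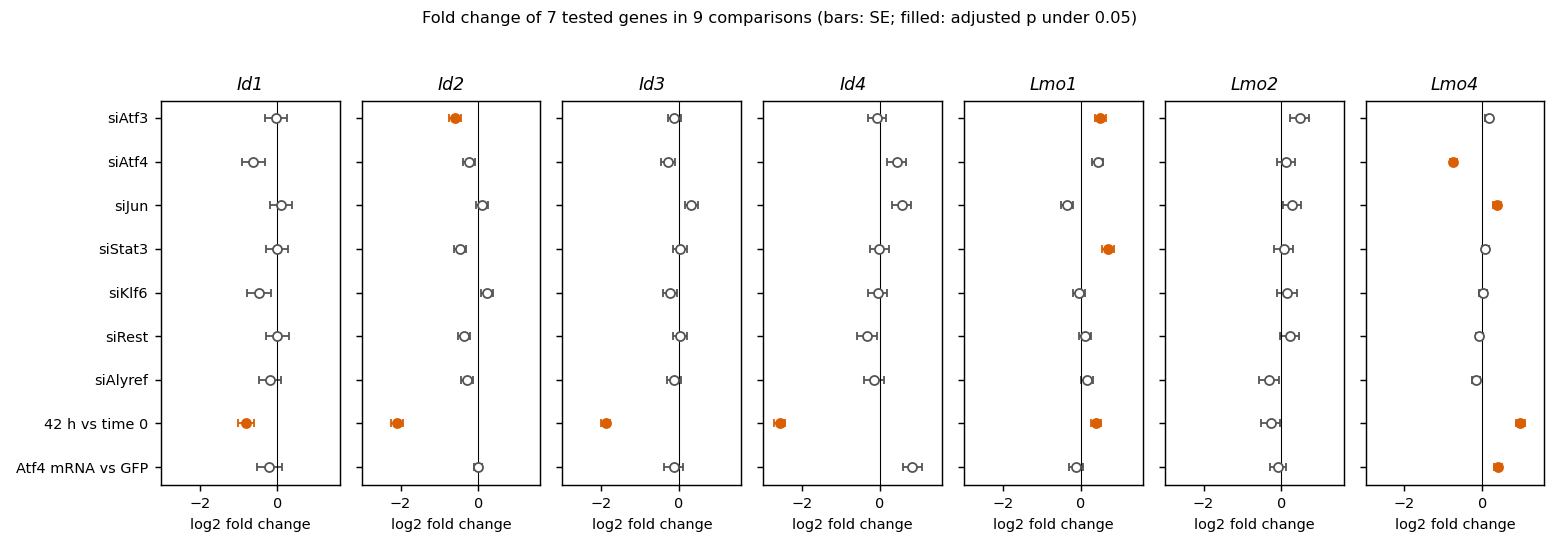
Log2 fold change (horizontal axis, bars are SE) of the 7 members tested in 9 comparisons (vertical axis); the 7 knockdowns are against siCONTROL, and filled points passed an edgeR adjusted p of 0.05. Lmo3, too low in these groups, is left out. Filled points to the left are the 4 Id genes at 42 h against time 0, Id2 with siAtf3 and Lmo4 with siAtf4; filled points to the right belong to Lmo1 and Lmo4.

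Some partners and regulators were also called in the knockdowns. Isl1, a LIM-homeodomain factor of sensory neurons that shares Ldb1 with Lmo proteins, rose after siAtf4 from 85.9 ± 10.2 to 187 ± 18.4 CPM (log2 1.11, SE 0.136, edgeR adjusted p = 1.38e-06) and fell after siAtf3 to 56.0 ± 4.02 CPM (log2 -0.62, edgeR adjusted p = 0.00273). Isl1 is also 1 of the pan-neuronal markers. Of 14 LIM partners tested, 2 rose and 0 fell after siAtf4, 2 rose and 0 fell after siJun, and 4 fell and 0 rose after siAtf3. Ldb2 rose after siAtf4 (58.9 ± 7.59 CPM, log2 0.71, edgeR adjusted p = 0.00552) and after siJun (58.1 ± 5.68 CPM, log2 0.70, edgeR adjusted p = 0.00564) from 35.8 ± 5.98 CPM in siCONTROL. Of the 3 E proteins tested, 0 passed in any knockdown by edgeR or DESeq2, and at an unadjusted p below 0.05 edgeR gave 1 after siAtf4, 1 after siAlyref and 0 in the other 5. Of 21 BMP and Smad genes tested, 1 rose and 2 fell after siAtf3, 2 rose after siAtf4, 3 fell after siJun, 3 fell after siStat3 and 2 fell after siAlyref. Over the 5 lists, 9 of 57 genes tested were called after siAtf3, where 11.5% of all genes were. It was 5 of 57 after siAtf4 (6.91% of all genes) and 7 of 57 after siJun (7.78%). After siStat3 it was 4 of 57 (3.03%) and after siAlyref 5 of 57 (4.26%). Whether the lists differ from all genes was not tested. Smad1 rose after siAtf4 (90.4 ± 3.95 against 68.0 ± 2.75 CPM, log2 0.41, edgeR adjusted p = 0.000494) and fell after siAlyref (51.2 ± 3.34 CPM, log2 -0.41, edgeR adjusted p = 0.00103). Bhlhe41, a repressor bHLH gene, was 1 of 10 tested on its list to pass after siStat3 and fell from 39.6 ± 5.10 to 22.4 ± 2.80 CPM (log2 -0.82, edgeR adjusted p = 0.00231). Cdkn1a fell after siAlyref from 823 ± 55.5 to 533 ± 10.6 CPM (log2 -0.63, edgeR adjusted p = 1.09e-09). With siKlf6 and siRest 0 of the 57 genes tested from the 5 lists passed by edgeR. DESeq2 called 2 after siKlf6 and 0 after siRest, and at an unadjusted p below 0.05 edgeR gave 6 and 4.

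Atf4 mRNA was compared with GFP mRNA to ask whether raising Atf4 moves the members. This comparison shares its 4 Atf4 libraries with the one on which the set was chosen. Lmo3 had too few counts in these groups to pass the filter on its own and entered the fit of the 3 mRNA groups through the Atf4 plus Cebpg group, on which it was selected. Its values are therefore given without a test. Of the other 7 members, 1 rose and 0 fell, and 4.84% of 13857 genes were called. Lmo4 was at 67.0, 55.1, 63.2 and 68.7 CPM with GFP mRNA and at 92.8, 77, 83.2 and 84.7 CPM with Atf4 mRNA. All Atf4 libraries were above all GFP libraries. Lmo4 rose 1.33-fold (log2 0.41, SE 0.0942, edgeR adjusted p = 0.023), opposite in direction to its change after siAtf4. The call was lost without GFP replicate 2 (adjusted p = 0.071) or 3 (0.0515) and without Atf4 replicate 1 (0.0645), 3 (0.0528) or 4 (0.0625).

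Lmo3 was at 0, 0.0949, 0 and 1.06 CPM with GFP mRNA and at 2.39, 2.60, 0.989 and 1.11 CPM with Atf4 mRNA. GFP replicate 4 lay above Atf4 replicate 3, and the whole GFP group held 5.18 expected counts of Lmo3 against 31.7 in the Atf4 group. Id4 was at 4.19, 3.52, 4.42 and 2.75 CPM with GFP mRNA and at 6.5, 4.72, 7.50 and 7.87 CPM with Atf4 mRNA. Its groups did not overlap, but it did not pass (log2 0.84, SE 0.241, edgeR adjusted p = 0.0637). Id2 was at 23.5, 20.6, 22.0 and 21.2 CPM with GFP mRNA and at 25.9, 19.7, 21.6 and 20.8 CPM with Atf4 mRNA. Those Id2 values covered the same range, with a log2 fold change of 0.00 and an SE of 0.105. Gata3, a zinc-finger factor bridged by Lmo proteins in blood cells, rose among 15 LIM partners from 0.937 ± 0.743 to 4.37 ± 1.43 CPM (log2 2.21, edgeR adjusted p = 0.02), a call lost without Atf4 replicate 4 or GFP replicate 1, 2 or 4 (edgeR adjusted p up to 0.0702). Of 21 BMP and Smad genes tested, 3 fell and 0 rose. Over the 5 lists, 6 of 56 genes tested were called, where 4.84% of all genes were. Of 4 E proteins and partners and of 8 bHLH genes tested, 0 passed by edgeR or DESeq2, with 0 and 2 at an unadjusted p below 0.05 by edgeR.

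The addition of Cebpg mRNA to Atf4 mRNA is described without a test, since Id2 and Lmo3 were selected on it. Mean Atf4 was also higher with both mRNAs, with overlapping ranges (10400 to 32400 against 8890 to 18300 CPM with Atf4 mRNA alone). The part of the Atf4 level in the differences below was not tested. Lmo3 was at 58.5, 57.1, 58.5 and 55.8 CPM in the Atf4 plus Cebpg group. Outside that group no library of the series exceeded 3.13 CPM, and with both mRNAs Lmo3 stood below Id2 (81.4 ± 4.29 CPM) and above Lmo1 (33.5 ± 8.25 CPM) and Lmo2 (18.1 ± 2.47 CPM). The log2 difference from Atf4 mRNA was 4.96 (SE 0.314), a fold of 31.2. The log2 difference from GFP mRNA was 7.43, resting on 5.18 expected counts in the GFP group, and was 9.26 without GFP replicate 4. Id2 was at 75.5, 81.1, 84.1 and 84.9 CPM with both mRNAs, above every GFP and Atf4 library by a wide margin. The Id2 difference was 3.73-fold from Atf4 mRNA (log2 1.90, SE 0.0991) and equally large from GFP mRNA (log2 1.90, SE 0.0982). In the separately scaled siRNA table, freshly isolated cells had 65.5 to 92.9 CPM of Id2.

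The other members, which did not prompt the choice by name, differed less. Lmo4 was at 131, 120, 105 and 124 CPM with both mRNAs, all above the Atf4 libraries (log2 0.50, SE 0.0929), and 1.88-fold above GFP mRNA (log2 0.91). Its 3 mRNA groups thus formed a series without overlap, at means of 63.5 ± 6.06, 84.4 ± 6.51 and 120 ± 10.7 CPM. Lmo2 was at 18.9, 18.6, 20.4 and 14.6 CPM, of which the lowest was just above the highest Atf4 library at 14.4 CPM (log2 0.81, SE 0.200). The values of Id1, Id3, Id4 and Lmo1 overlapped between the groups with and without Cebpg mRNA, with log2 differences from Atf4 mRNA of 0.53, 0.42, -0.14 and 0.12. Id4 was at 7.04, 5.3, 5.62 and 6.62 CPM with both mRNAs, above all GFP libraries (log2 0.70). In these comparisons 6.60% (against Atf4 mRNA) and 24.6% (against GFP mRNA) of 13857 genes were called. Summed, the Lmo genes were at 109 ± 5.76 CPM with GFP mRNA, 128 ± 10.4 with Atf4 mRNA and 229 ± 4.96 with both, and the Id genes at 54.7 ± 8.46, 54.6 ± 0.493 and 123 ± 11 CPM. Schwann cell markers summed to 2610 to 3550, 3460 to 4820 and 2990 to 6220 CPM in the 3 groups, a list that includes Gap43, which growing neurons express as well. Satellite glia markers summed to 665 to 760, 600 to 638 and 617 to 671 CPM, and pan-neuronal markers to 14600 to 17700, 13500 to 15500 and 12500 to 15600 CPM. Of the satellite glia markers, Glul was at 224 ± 31.2 CPM with Atf4 mRNA against 367 ± 43.7 CPM with GFP mRNA, while the median log2 change of that list was 0.12. The part of these in the Id2 and Lmo values was not tested.

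**Figure D4:**
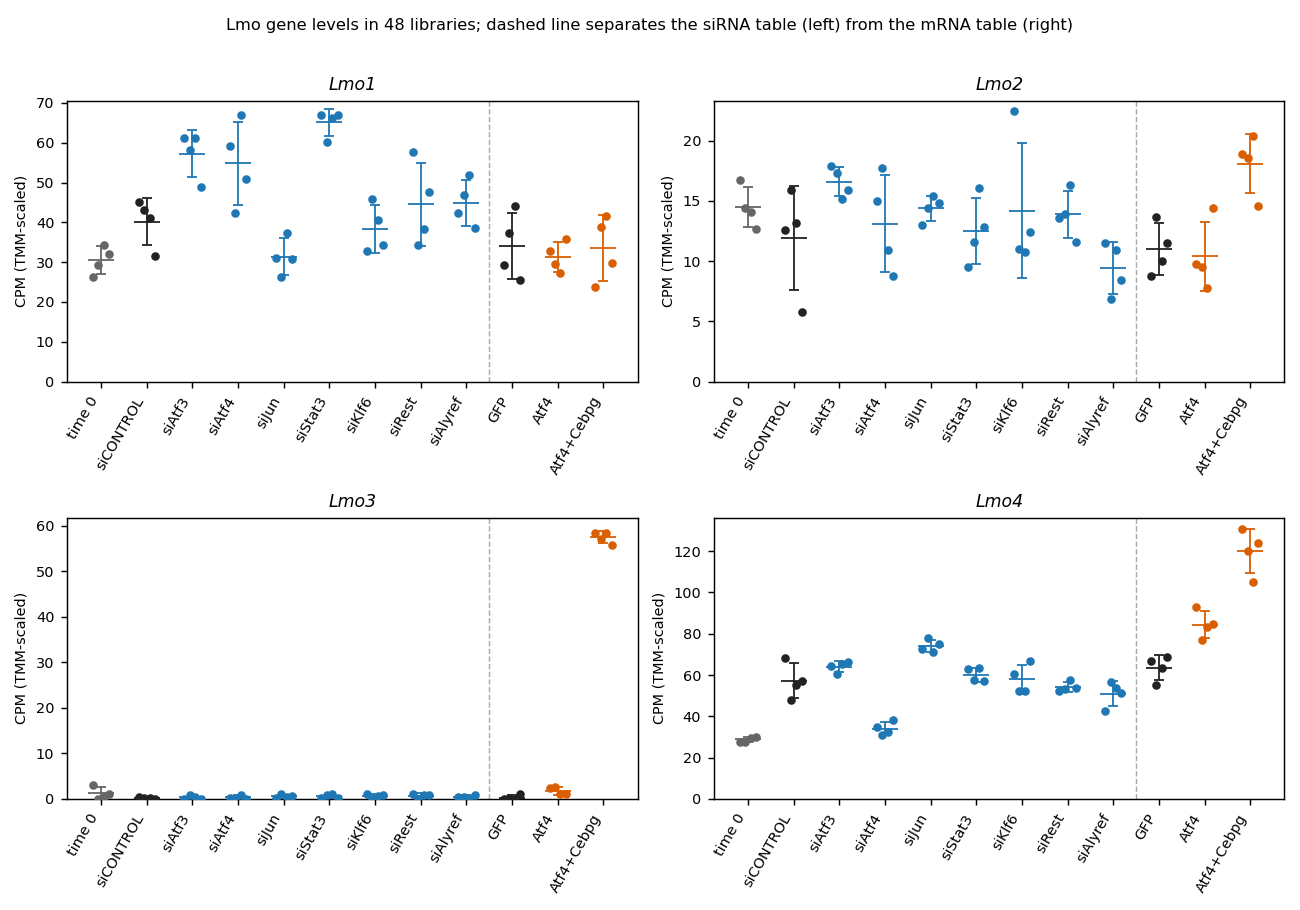
Levels of Lmo1, Lmo2, Lmo3 and Lmo4 in TMM-scaled CPM (vertical axis) in the 12 groups (horizontal axis); points are libraries, ordered by replicate number, and bars are the mean ± SD of 4. Lmo3 stays at or below 3.13 CPM except with Atf4 plus Cebpg mRNA (55.8 to 58.5 CPM), and Lmo4 is lowest at time 0 and after siAtf4 and highest with both mRNAs.

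Ordering the groups by level shows where the members stood apart. Within the siRNA table, time 0 ranked first for all 4 Id genes, above the next group by more than the larger SD. Among the other groups of the Id genes the 1 such step was in Id4, from siAtf4 (6.14 ± 1.14 CPM) to siCONTROL (4.51 ± 0.73 CPM). For Lmo4 the order ran from siJun (74.1 ± 3.09 CPM) and siAtf3 (64.1 ± 2.59) down to siAtf4 (34.0 ± 3.13) and time 0 (28.8 ± 1.34), and the 5 groups from siStat3 (60.1 ± 3.34) to siAlyref (51.0 ± 5.94) did not differ from each other in sequence beyond their spread. For Lmo1, siStat3 stood first (65.1 ± 3.28), ahead of siAtf3 (57.3 ± 5.84) by more than the larger SD, and siJun (31.4 ± 4.57) and time 0 (30.5 ± 3.47) stood last without such a step between them. Lmo2 was highest in siAtf3, above time 0 (14.5 ± 1.64) by more than the larger SD, and the 8 groups from time 0 down to siAlyref did not differ from their neighbours beyond their spread. For Lmo3 no neighbours in the siRNA table did.

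Across the 32 siRNA libraries at 42 h, the genes whose log2 CPM followed a member most closely were listed, by Pearson's r over 14876 genes. These libraries share the 4 controls and the knockdown groups, so the r values are descriptions. The closest likeness was that of Lmo4, with Phf10, a chromatin remodelling subunit (r = 0.90), Hspa9, the mitochondrial heat shock protein (0.90) and Tmbim6, an ER membrane protein that limits cell death (0.89). Id2 was most like Klf7, a Kruppel-like factor of sensory neurons (0.76), Tmem164 (0.73) and Srp72, a signal recognition particle subunit (0.71). Lmo1 was most like Specc1l (0.72), Stmn4, a neuronal stathmin (0.72) and Fndc3a (0.70). The top r of the other members was 0.69 for Id3 (Steap3), 0.69 for Id4 (Tmem229a), 0.65 for Lmo2 (Mdm4) and 0.64 for Id1 (Ube2z). Among the 21 pairs of members r ran from -0.63 for Id2 with Lmo1 to 0.39 for Id1 with Lmo4, and the pairs within the Id genes lay between -0.14 and 0.31. The 4 Id genes, all lower at 42 h than at time 0, thus had low r with each other across these libraries. In expected counts, which are weighted by transcript length, Id4 ran from 6.62 (siKlf6 replicate 1) to 49.9 (siJun replicate 3) a library. Id1 ran from 23.8 (siKlf6 replicate 1) to 103 (siJun replicate 1). Id2 ran from 30.4 (siRest replicate 1) to 132 (siJun replicate 3), and Id3 from 20.1 (siKlf6 replicate 1) to 168 (siJun replicate 1). The r of Id2 with Id3 was 0.06. Counting noise lowers r at low counts, and its part in these r values was not tested. The r values therefore cannot show whether the genes vary together.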

How the data were processed

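RNA was sequenced with a stranded mRNA kit, per the labels. The values the authors deposited are expected counts, which carry decimals. The submitters' processing notes name kallisto and GRCm39. Not given in the sources used here are the kallisto version, the annotation and the scaling step. Small values times transcript length clustered at 1 constant per library (1900 to 2200), as for counts weighted by length. Symbols came from a GRCm38 annotation, which matched 32470 of 34183 identifiers. Columns were matched by name, and 0 pairs were identical.

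Expected counts were rounded, filtered with filterByExpr, scaled by TMM and tested in edgeR 4.0.16 (quasi-likelihood, two-sided, R 4.3.3) with Benjamini-Hochberg adjustment over all genes tested and a threshold of 0.05. The 8 siRNA groups at 42 h were fitted together (14876 genes), siCONTROL with time 0 alone (13448) and the 3 mRNA groups together (13857). SE is the absolute log2 fold change divided by the square root of F. DESeq2 1.42.0 was an alternative. The scripts were tested on simulated data. Likeness used log2 CPM with a prior count of 2. Levels next to each other in the order were called alike where means differed by less than the larger SD.

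The members and the lists of partners, regulators and markers were chosen with earlier results of these data known. From each list and comparison the up to 2 genes per direction with the smallest adjusted p could be named. Other settings are described at the end.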

Additional observations from a re-analysis of the deposited data

Results flagged for a closer look

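In 6 of 96 groups of 4 libraries, 1 library's level of a member stood far from the other 3 by Dixon's test. Chance flags about 1 in 20 groups. Id1 was at 22.4 CPM in siRest replicate 1, a shallow library, against 8.83 to 10.7 CPM in the other siRest libraries. Id3 was at 13.6 CPM in siAtf3 replicate 4 against 19.1 to 19.2 CPM, and at 12.8 CPM in siRest replicate 4 against 21.7 to 22.8 CPM. Lmo1 was at 60.2 CPM in siStat3 replicate 2 against 66.3 to 66.9 CPM. Lmo2 was at 22.5 CPM in siKlf6 replicate 1, the shallowest library, against 10.8 to 12.4 CPM. Lmo3 was at 1.06 CPM in GFP replicate 4 against 0 to 0.0949 CPM.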

How the results depend on the processing

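Of 63 tests of members, 12 were called, and 8 kept their call in every alternative run: DESeq2, its size factors, no filter, fewer or more groups in the fit, a replicate block, and each library left out. The other 4, with Lmo1 after siAtf4, are given in the report with their values. Of 51 tests not called, 50 were called in no alternative, and 21 changed sign in at least 1. The alternatives were added for the 46 pathway gene tests after seeing the data: 27 kept their call in every one and 0 reversed. The counts of called genes moved by more than 1.5 times as follows. With only the 2 groups fitted they were 204 for siStat3 (450 in the main analysis), 18 for siKlf6 (275), 5 for siRest (30) and 352 for siAlyref (633). For siRest they were 47 with DESeq2 and 18 without a filter. Left-out libraries gave 160 to 284 for siKlf6, 15 to 24 for siRest, 339 to 572 for Atf4 against GFP mRNA (671) and 553 to 961 for Atf4 plus Cebpg against Atf4 mRNA (915). Whether replicate numbers pair the samples is not given by the labels, and not every same-numbered pair reached the r of 0.1 asked of a pairing. Same-numbered libraries had r of 0.031 to 0.178 over the comparisons, and other pairs a median r of -0.047 to -0.011. From 2 to 4 libraries a comparison correlated best with their own number, all 4 in siRest and the 3 mRNA comparisons, a hint from the data and not from the design. With the replicate block the counts were 751 for siStat3, 46 for siRest and 1028 for Atf4 against GFP mRNA. The cause of these shifts was not tested. With plain CPM in place of TMM, 93 of 96 member levels moved by less than 1 SD, the others being Id4 at time 0 (25.4 CPM), Lmo4 at time 0 (26.7 CPM) and Lmo4 after siAtf3 (66.9 CPM), and 80 of 84 marker sums did. Depth limited Lmo3 outside the Atf4 plus Cebpg group and the low Id4 and Lmo2 levels.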
